A study of Mus musculus with 8 samples.

Results

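The respiratory chain genes of mouse embryos were examined across 4 genotypes, with the subunits encoded by mitochondrial DNA set beside those encoded in the nucleus. Members were taken by gene symbol from the mRNA table: symbols that begin with mt-Nd, mt-Co, mt-Cyt or mt-Atp, with Nduf, Uqcr or Atp5, with Sdh followed by a, b, c or d alone, or with Cox4 to Cox8. The rule found 107 of 29639 entries, which stand for 106 genes because the symbol Atp5o has 2 entries and was summed. Of these, 13 are subunits encoded by mitochondrial DNA, 84 are nuclear subunits and 9 are assembly factors that share the prefixes (Ndufaf1 to Ndufaf8 and Atp5s). At least 1 FPKM (fragments scaled to transcript length and library size) in at least 2 columns was reached by all 13 mitochondrially encoded subunits, 79 nuclear subunits and all 9 assembly factors. The 5 members below it were Cox4i2, Cox7b2, Cox8b, Cox8c and Ndufa4l2.

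The study placed polyadenylation cassettes, which end transcription early, in the promoter of Gtl2, a maternally expressed gene of the imprinted Dlk1-Dio3 domain. Whole wild-type embryos (WT) and embryos with a paternally inherited (PKI), a maternally inherited (MKI) or a homozygous (HOMO) insertion were sequenced, all at embryonic day 12.5 in the series' own design. The sample titles give day 12.5 for WT and slightly later days for PKI, MKI and HOMO, in that order, which was not resolved against the design text. The labels hold 8 samples, 2 per genotype, but each table has 1 column per genotype, so no spread between embryos was measured and no difference below has a test. The labels name neither the strain nor the sex of the embryos, nor whether embryos were pooled.

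The respiratory chain passes electrons from NADH and succinate through complexes I to IV to oxygen and pumps protons across the inner mitochondrial membrane, and ATP synthase, counted as complex V, uses that gradient to make ATP. Both genomes supply parts: mitochondrial DNA encodes core membrane subunits of complexes I, III, IV and V, while complex II and all remaining subunits are made from nuclear genes and imported. Mitochondrial DNA is copied into long transcripts that are cut into single messages, so the levels of those messages depend on processing and stability as well as on transcription. In the embryo, heart, muscle, liver and red cell precursors differ widely in mitochondrial content, and in whole-embryo RNA fewer cells of a type cannot be told apart from less RNA per cell.

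MKI was the column least like the rest. Over the 13279 genes that passed the filter, Pearson's r of log2 values was 0.864 to 0.882 between MKI and each other column and 0.961 to 0.975 among WT, PKI and HOMO. The number of reads behind the mRNA columns is unknown, since the table used here holds normalised values. The insertion labels were checked on microRNAs of the domain that lie downstream of the Gtl2 promoter: miR-410-3p stood at 619.7 and 609.7 RPM (reads scaled to library size) in WT and PKI and at 23.2 and 25.6 in MKI and HOMO. Gtl2 itself was not analysed here. Y-linked genes summed to 0 FPKM in WT and to 47.9, 73.3 and 42.3 in the other columns, so WT held no measured male RNA and the other columns did. With 1 column per genotype, embryo sex, stage, library and genotype cannot be told apart in any comparison below.

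Nuclear respiratory genes lie apart from one another. The 84 nuclear subunits were spread over 19 chromosomes, and 3 of them (Ndufa1, Ndufb11 and Cox7b) are X-linked. On chromosome 12, which carries the Dlk1-Dio3 domain, were Atp5mpl (chr12:111961374-111967009, GRCm38), 1.68 Mb beyond the end of Dio3, and Cox8c, 6.55 Mb before Dlk1. Some of them share a promoter word. The factor NRF1, a known activator of respiratory genes, binds a word of 10 bases that is its own reverse complement and stands in capitals in the sequences printed here. In RefSeq windows from 250 bases before to 50 after each annotated start (GRCm38.p6), 5 of 72 windows of nuclear subunits held it exactly, or 6.94%, compared with 0.971% of all 32851 windows and 1.99% of the 12709 windows of genes that passed the filter. With up to 1 mismatch, 33.3% of subunit windows matched, compared with 6.33% of all windows and 12.63% of those of filtered genes. The shorter CATGCGC, which lies within the longer word, was held on either strand by 18.1% of subunit windows, 3.91% of all windows and 6.74% of those of filtered genes. CCGGAAG, a word of ETS factors such as GABPA searched on both strands, was held by 22.2% of subunit windows, 8.86% of all and 16.8% of those of filtered genes. Of the 5 exact matches, the 4 that lie upstream of the start are shown because their genes differ in how far MKI stood from WT. Capitals mark the NRF1 word, and each sequence reads 5′ to 3′ on the gene's strand.
Atp5g2 (chr15:102671055-102671114, minus strand): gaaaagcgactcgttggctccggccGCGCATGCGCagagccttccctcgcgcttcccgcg
Cox6a1 (chr5:115349086-115349145, minus strand): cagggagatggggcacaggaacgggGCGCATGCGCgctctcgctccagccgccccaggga
Atp5k (chr5:108434415-108434474, minus strand): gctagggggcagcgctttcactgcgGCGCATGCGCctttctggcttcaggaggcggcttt
Ndufa11 (chr17:56717677-56717736, plus strand): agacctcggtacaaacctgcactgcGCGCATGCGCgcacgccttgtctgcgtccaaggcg
The word began 42 bases before the annotated start in Atp5g2, 50 in Atp5k, 60 in Ndufa11 and 162 in Cox6a1. A match in these windows is a run of letters and no measure of binding.

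Among the subunits encoded by mitochondrial DNA, mt-Co1 and mt-Co3, which belong to complex IV, were the most abundant per length, and most messages stood highest in the MKI column. In MKI, 12 of 13 were above WT, with a median difference of 0.61 on the log2(FPKM + 0.5) scale, while the median of all 13279 genes was −0.11. Past 2-fold higher in MKI were mt-Nd1, mt-Co1, mt-Co2 and mt-Co3, that is 4 of 13, where 1.22% of all genes were 2-fold or more higher. PKI and HOMO had no such common direction: 6 and 5 of the 13 were above WT, with medians of −0.00 and −0.09. In HOMO against PKI, the other pair of columns that differ by the maternal insertion, 5 were higher and 8 lower, with a median of −0.12. The median thus had opposite signs in the pairs that differ by the maternal insertion, though that of HOMO against PKI was 0.093, above 0, under quantile normalisation.

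Complex I takes 7 subunits from mitochondrial DNA, all in its proton-pumping membrane arm. mt-Nd1 (mitochondrial positions 2751 to 3707), which sits where the membrane arm meets the quinone site, had 96.1 FPKM in WT and 95.8 in PKI, and 355 in MKI and 211 in HOMO. MKI and HOMO were the high columns, with log2 differences from WT of 1.88 and 1.13, and HOMO exceeded PKI by 1.14. mt-Nd1 was the 1 mitochondrial message past 2-fold higher in both pairs that differ by the maternal insertion. Over all genes tested, 0.0979% were 2-fold or more higher in both pairs. Its neighbour mt-Nd2 (3914 to 4951) lay between 136 and 165 FPKM in all columns, so that the ratio of mt-Nd1 to mt-Nd2 was 0.665 in WT and 0.661 in PKI, and 2.15 in MKI and 1.55 in HOMO. mt-Nd3 (9459 to 9806) had 176 FPKM in WT and 336 in PKI, and 177 in MKI and 144 in HOMO. PKI alone was high there, by a log2 difference of 0.93 over WT. mt-Nd4l (9877 to 10173) stood at 283, 262, 480 and 304 FPKM, and mt-Nd4 (10167 to 11544) at 307, 306, 468 and 272, in the order WT, PKI, MKI and HOMO. MKI was the high column for both, and the genes overlap, so reads in the shared bases cannot be assigned to one of them. mt-Nd5 (11742 to 13565) ranged from 129 FPKM in PKI to 193 in MKI. mt-Nd6 (13552 to 14070), the 1 subunit read from the light strand, ranged from 148 in HOMO to 187 in MKI. Its end overlaps that of mt-Nd5 on the opposite strand, and the sources used here do not say whether strand was used in counting.

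Complexes III, IV and V take fewer subunits from mitochondrial DNA. mt-Cytb (14145 to 15288), the cytochrome b of complex III, had 515 FPKM in WT and 611 in PKI, and 847 in MKI and 545 in HOMO, with MKI again highest. mt-Co1 (5328 to 6872), the catalytic subunit of cytochrome c oxidase that holds its haems, had 1936, 2464, 3969 and 2577 FPKM in the same order. Its log2 difference from WT was 0.35 in PKI, 1.03 in MKI and 0.41 in HOMO. Under quantile normalisation of the columns the MKI value was 0.74, below 2-fold. mt-Co2 (7013 to 7696), which receives electrons from cytochrome c, had 198, 151, 424 and 255 FPKM, with log2 differences from WT of −0.39, 1.10 and 0.36. mt-Co3 (8607 to 9390), the third core subunit, had 1721 FPKM in WT and 2850 in PKI, and 4349 in MKI and 1254 in HOMO. It was therefore high in MKI against WT by 1.34 and low in HOMO against PKI by 1.18, opposite directions for the same inherited insertion, and the ratio of mt-Co3 to mt-Co1 was 0.889, 1.16, 1.10 and 0.487. mt-Atp6 (7927 to 8607), which forms the proton channel of ATP synthase with the ring of subunit c, had 414, 457, 576 and 286 FPKM. mt-Atp8 (7766 to 7969), which shares bases with it, had 275, 237, 212 and 168, and was the 1 mitochondrial message below WT in MKI. HOMO was the lowest column for both ATP synthase messages, with log2 differences from WT of −0.53 and −0.71.

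**Figure D1:**
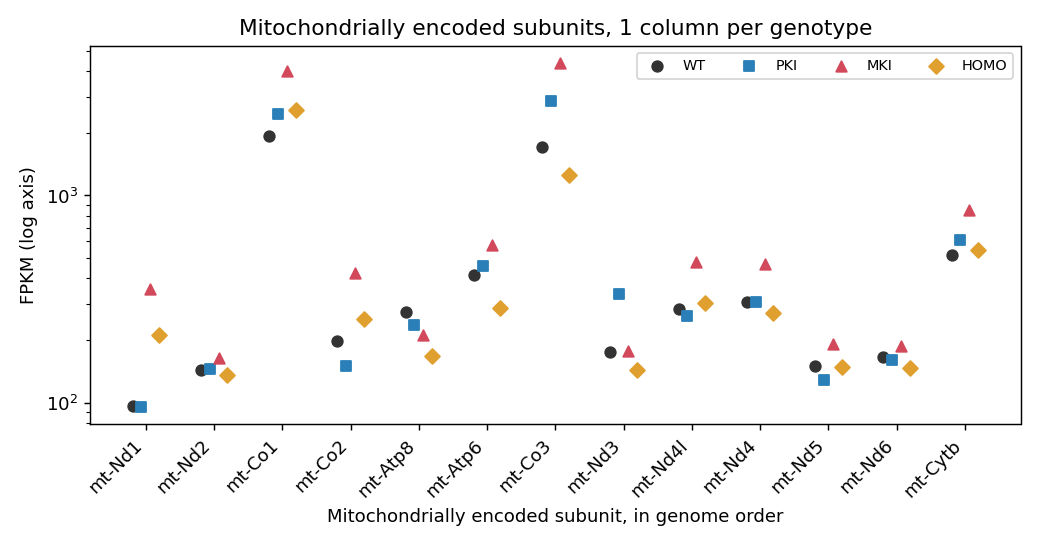
Level in FPKM on a log axis of each of the 13 subunits encoded by mitochondrial DNA, in genome order, with 1 point per genotype column and no error because each column is single. MKI is the highest point for mt-Nd1, mt-Co1, mt-Co2, mt-Co3 and mt-Cytb, while mt-Nd3 is highest in PKI and mt-Atp8 in WT.

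Adding up the 13 messages gave 6384 FPKM in WT and 8204 in PKI, and 12403 in MKI and 6449 in HOMO, or 2.28%, 2.76%, 4.96% and 2.28% of each column's total. mt-Co1 and mt-Co3 alone made up 3658, 5314, 8317 and 3831 FPKM of those sums, so both genes weigh heavily in them. Nuclear DNA holds copies of pieces of mitochondrial DNA, and the sources used here do not say how reads matching both were placed. The mitochondrial values carry that uncertainty.

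Nuclear subunits in PKI stood slightly but widely above WT. Of 79, 71 were higher and 8 lower, with a median log2 difference of 0.37, where all genes had a median of −0.07. Few were far apart: 1 (Atp5g1) was past 2-fold higher and none lower, beside 0.7% of all genes 2-fold or more higher and 1.45% lower. At 1.5-fold, 14 of 79 were higher and 1 lower, compared with 3.14% and 7.3% of all genes. The direction was shared by the complexes, with medians of 0.38 for complex I (37 subunits), 0.16 for complex II (4), 0.32 for complex III (8), 0.37 for complex IV (14) and 0.43 for ATP synthase (16). Here and below, complexes were assigned by symbol prefix alone, which put Ndufa4 in complex I and Cox7a2l in complex IV. Ndufa4l2, treated below with the oxidase isoforms, also carries the complex I prefix.

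The members furthest above WT in PKI were small subunits. Atp5g1 (chr11:96072793-96075694), one of 3 genes for the proton-carrying subunit c of ATP synthase, had 25.6 FPKM in WT and 53.1 in PKI, and 12.2 in MKI and 12.5 in HOMO, with PKI above WT by a log2 difference of 1.04. It stood at 0.96, below 2-fold, once columns were rescaled to nuclear genes. Ndufb2, an accessory subunit of the membrane arm of complex I, had 9.06, 18.3, 4.05 and 11.2 FPKM and was 0.98 above WT in PKI. Ndufc2 and Ndufb4, from the same arm, were 0.89 and 0.87 above. At the other end, Ndufa12, an accessory complex I subunit that joins late in assembly, had 22.7 FPKM in WT and 12.6998 in PKI, and 4.60 in MKI and 6.44 in HOMO. It was the nuclear subunit furthest below WT in both PKI (−0.81) and HOMO (−1.74), with WT the high column, and a RefSeq pseudogene carries its name, so its reads may be shared with that copy. The same limit holds for each of the 9 members with such pseudogenes: Ndufa12, Ndufab1, Ndufs5, Uqcrh, Cox5b, Cox7c, Atp5c1, Atp5k and Atp5l. The muscle isoforms Cox6a2 and Cox7a1 (both −0.32), Sdha (−0.21) and Atp5d (−0.19) were also below WT in PKI. Both isoforms lay near 1 FPKM, and Cox7a1 passed the filter through WT and HOMO alone, so its place below WT in PKI is no separate result. Some large subunits lay close to WT: Atp5b, the catalytic β subunit of ATP synthase, had 354 FPKM in WT and 368 in PKI, and Ndufs1, an iron-sulfur subunit of the NADH arm, 38.0 and 38.5.

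In MKI the nuclear subunits spread far to both sides of WT, and more of them were low. Of 79, 57 were lower and 22 higher, with a median log2 difference of −0.52, a range from −2.76 to 1.39 and an interquartile range of 1.11, the last close to the 1.12 of all genes. Past 2-fold lower were 24 of 79, or 30.4%, where 19.1% of all genes were. Among the 24, Cox7a1 is listed at 0 in MKI and passed the filter through WT and HOMO alone, so its fold is set by the pseudocount; without it the count was 23 of 78, or 29.5%, and the median −0.44. Past 2-fold higher was Uqcrb alone, where 1.22% of all genes were. At 1.5-fold, 38 were lower and 5 higher, beside 31.6% and 10.5% of all genes. Together with the mitochondrial messages, 5 subunits were past 2-fold higher and 24 lower, a split of 9 and 19 under quantile normalisation, 6 and 16 under trimmed-mean scaling and 7 and 16 after rescaling to nuclear genes. That last scaling put the nuclear median at −0.32.

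Complex I, whose peripheral arm takes electrons from NADH, had 9 of 37 nuclear subunits past 2-fold lower in MKI, or 24.3%, where 19.1% of all genes were. The 9 were Ndufa7, Ndufa12, Ndufa13, Ndufb2, Ndufb4, Ndufb7, Ndufb11, Ndufs7 and Ndufv1. Subunits that work side by side differed. Ndufs7, which carries the last iron-sulfur cluster before the quinone, had 42.4 FPKM in WT and 42.9 in PKI, and 10.7 in MKI and 37.0 in HOMO, and MKI was low by 1.94. Ndufs8, its partner in the same arm, had 29.1, 36.4, 16.8 and 32.4 FPKM, 0.77 lower in MKI. Ndufs1 had 44.0 FPKM in MKI and so was 0.21 above WT, so that the ratio of Ndufs1 to Ndufs7 was 0.896 in WT and 0.898 in PKI, and 4.12 in MKI and 0.937 in HOMO. Ndufv1, the flavin subunit where NADH is oxidised, had 35.5, 32.9, 14.4 and 36.2 FPKM, while Ndufv2 beside it had 39.9, 49.6, 47.3 and 35.3. Only the first of this pair was low in MKI. Ndufs3, another core subunit of the peripheral arm, differed from WT in MKI by 0.11. Calls near the threshold depended on the scale: Ndufa13 (−1.05), Ndufb2 (−1.07) and Ndufb4 (−1.03) were short of 2-fold with a pseudocount of 1 and under each of the 3 scalings.

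Complex II is wholly nuclear and also links the chain to the citric acid cycle. Sdha, its flavin subunit, had 42.7 FPKM in WT and 36.9 in PKI, and 51.3 in MKI and 41.0 in HOMO, and Sdhb, the iron-sulfur subunit, had 72.9, 85.6, 57.3 and 68.1. The membrane anchors were lower in MKI: Sdhc had 17.6, 18.9, 8.48 and 21.0 FPKM and Sdhd 38.5, 47.2, 18.4 and 39.0. Their MKI differences of −1.01 and −1.04 were past 2-fold as given and short of it under trimmed-mean scaling, at −0.89 and −0.92, and after rescaling to nuclear genes, at −0.81 and −0.84. Sdhc was also short with a pseudocount of 1 (−0.97) and under quantile normalisation (−0.81). The ratio of Sdha to Sdhd was 1.11, 0.781, 2.78 and 1.05.

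Complex III had members past 2-fold on both sides of WT in MKI. Of 8 nuclear subunits, 3 were lower and 1 higher, beside 19.1% and 1.22% of all genes. Uqcrb (chr13:66900576-66905350), a small subunit by the quinone pocket, had 46.9 FPKM in WT and 70.3 in PKI, and 124 in MKI and 52.4 in HOMO, and MKI was 1.39 above WT. Uqcr11, another small subunit, had 15.5, 21.0, 4.25 and 21.6 FPKM, and MKI was 1.75 below. The ratio of Uqcrb to Uqcr11 was accordingly 3.03, 3.35, 29.2 and 2.42. Uqcrq and Uqcr10, small subunits as well, were 1.43 and 1.04 lower in MKI, the latter short of 2-fold under trimmed-mean scaling (−0.92) and after rescaling to nuclear genes (−0.84). Of the larger parts, Uqcrc1 and the Rieske iron-sulfur protein Uqcrfs1 were 0.76 and 0.73 lower, and Uqcrc2, the second core protein, was 0.30 higher. Uqcrh, the hinge protein that meets cytochrome c1, had 73.5, 124, 59.7 and 70.9 FPKM, with PKI the high column.

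In complex IV, Cox8a, Cox6a1 and Cox6b1 were past 2-fold lower in MKI, beside Cox7a1, which has no fold because it is listed at 0 there. With Cox7a1 counted these were 4 of 14, or 28.6%, where 19.1% of all genes were. Cox8a (chr19:7215158-7217616), a very small subunit of the membrane part, had 123 FPKM in WT and 138 in PKI, and 17.8 in MKI and 111 in HOMO. Its MKI level was 6.92-fold below WT, a log2 difference of −2.76 and the lowest of all nuclear subunits, while the other columns lay within 0.16 of WT on the log2 scale. Cox6a1, a regulatory subunit, had 47.4, 58.1, 10.3 and 49.4 FPKM, and Cox6b1, which bridges the oxidase dimer, had 97.8, 130, 35.9 and 88.9. Against these, Cox6c had 141, 208, 250 and 157 FPKM and stood 0.83 above WT in MKI, and Cox4i1, the largest nuclear subunit, had 162, 223, 189 and 201. Of the 3 mitochondrially encoded subunits of the same complex, none was below WT in MKI. The ratio of Cox4i1 to Cox8a was 1.31 in WT and 1.62 in PKI, and 10.6 in MKI and 1.82 in HOMO.

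ATP synthase had 6 of 16 nuclear subunits past 2-fold lower in MKI, or 37.5%, where 19.1% of all genes were. The 6 were Atp5d, Atp5e, Atp5mpl and all 3 genes for subunit c. Of these Atp5e (−1.09) was short of 2-fold under trimmed-mean scaling (−0.97) and after rescaling to nuclear genes (−0.89), and Atp5g1 (−1.04) under each of the 3 scalings. Atp5d, the δ subunit of the rotor stalk, had 75.6, 66.4, 21.0 and 72.6 FPKM, and MKI was 1.82 below WT. The α and β subunits of the catalytic head differed little: Atp5a1 had 255, 277, 225 and 260 FPKM, and Atp5b had 307 in MKI and 365 in HOMO. The ratio of Atp5a1 to Atp5d was 3.37, 4.17, 10.7 and 3.58. Atp5c1, the γ subunit that turns within the head, had 83.5, 108, 142 and 80.3 FPKM, 0.77 above WT in MKI, with a RefSeq pseudogene of its name. Atp5j and Atp5h, subunits of the stator stalk, were 0.94 and 0.77 above. Atp5mpl, a small proteolipid and the chromosome 12 member beyond Dio3, had 49.0 FPKM in WT and 88.4 in PKI, and 11.6 in MKI and 42.9 in HOMO.

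**Figure D2:**
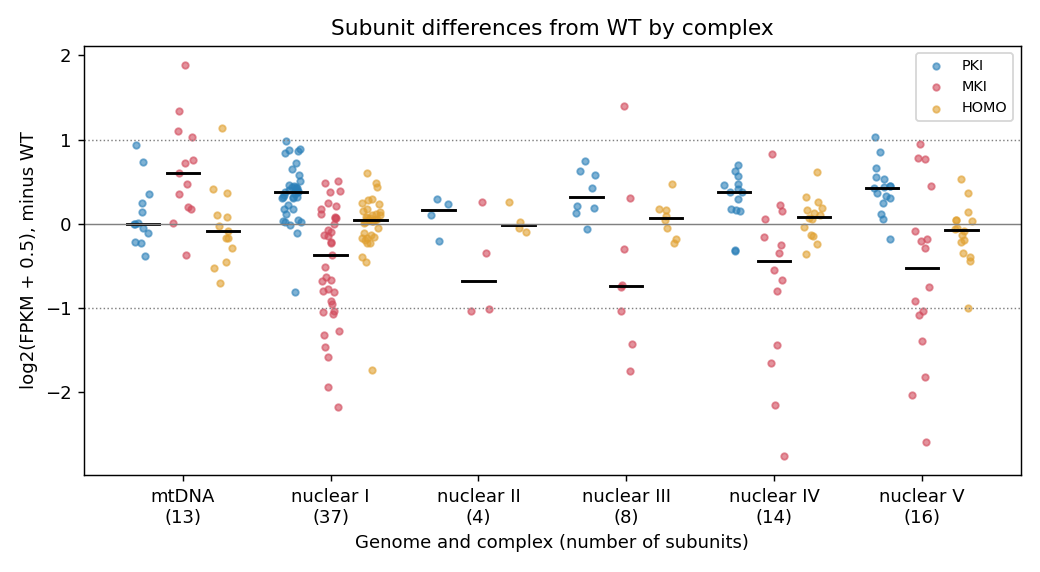
Difference from WT of each subunit that passed the filter, on the log2(FPKM + 0.5) scale, grouped by genome and complex, with 1 point per gene, black bars at the medians and dotted lines at 2-fold. PKI points of every nuclear complex centre above 0, MKI points spread widely and centre below it, and the mitochondrially encoded MKI points centre above it. Complexes were assigned by symbol prefix.

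The MKI differences went with the length of the gene, in the subunits and in all genes alike. Of 79 nuclear subunits, 56 span less than 10 kb in RefSeq, and these had a median MKI difference of −0.77 with 21 (37.5%) past 2-fold lower. Among all 2986 genes of that span, the median was −0.67 and 36.7% were past 2-fold lower. The 23 subunits of 10 kb or more had a median of −0.14 and 3 (13.04%) past 2-fold lower, compared with 0.00 and 14.1% in all 9562 genes of that length. Within each span class the subunits' share was thus close to that of all genes. Spearman's rho of the MKI difference with span was 0.337 across the 79 subunits and 0.347 across 12548 genes, values that describe genes within the same 2 columns. In PKI the relation ran the other way, with rho of −0.203 and −0.286. There, short subunits had a median of 0.42 and 13 of 56 (23.2%) past 1.5-fold higher, where short genes in general had a median of 0.05 and 5.93% were, and long subunits had a median of 0.23 beside −0.10. What lies behind the relation with span was not tested.

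**Figure D3:**
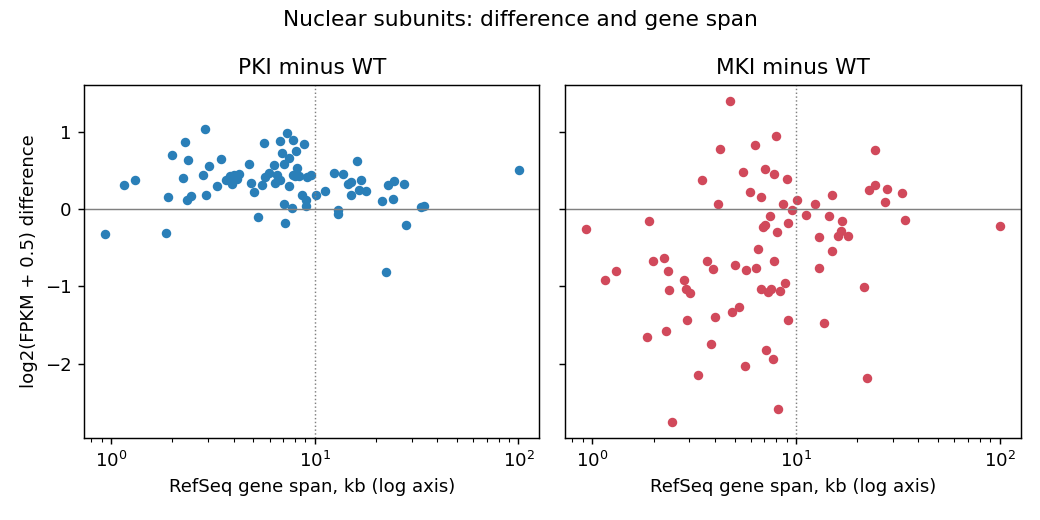
Difference from WT on the log2(FPKM + 0.5) scale of the 79 nuclear subunits against their RefSeq gene span in kb on a log axis, for PKI (left) and MKI (right), with 1 point per gene and a dotted line at 10 kb. Most MKI points below −1 lie left of the line, 21 of 24, and PKI points sit mostly above 0 on both sides.

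HOMO lay close to WT. Of 79 nuclear subunits, 47 were higher and 32 lower, with a median log2 difference of 0.04 beside −0.06 for all genes and an interquartile range of 0.29 beside 0.29. Past 2-fold lower were Ndufa12 and Atp5g1 (−1.01), or 2 of 79, where 0.783% of all genes were, and none was past 2-fold higher, where 0.67% were. The call of Atp5g1 was lost with a pseudocount of 1 (−0.98) and under trimmed-mean scaling (−0.93). At 1.5-fold, 2 were higher and 2 lower, beside 1.91% and 3.04% of all genes. The furthest above WT were the testis isoform Cox6b2 (0.62), Ndufb3 (0.60), Atp5h (0.53) and Ndufa3 (0.49). Next below were Atp5g3 (−0.44) and Ndufb11 (−0.46).

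HOMO against PKI compares embryos that both carry the paternal insertion and differ by the maternal one, and shares no column with MKI against WT. Nuclear subunits were mostly lower in HOMO: 64 of 79, with a median of −0.30 where all genes had 0.01, and medians of −0.29, −0.06, −0.39, −0.27 and −0.48 in complexes I to V. Past 2-fold lower were 5 of 79, where 1.32% of all genes were: Atp5g1, Ndufb11, Ndufc1, Atp5mpl and Ndufb6. The last 3 were short of 2-fold after rescaling to nuclear genes (−0.98, −0.97 and −0.95), Atp5mpl also under quantile normalisation (−0.89) and Ndufb6 with a pseudocount of 1 (−0.99). At 1.5-fold 18 were lower and none higher, beside 5.5% and 6.63% of all genes. This comparison and PKI against WT have the PKI column in common, so a high value in that column enters both. Ndufb11, an X-linked accessory subunit of complex I, had 34.5 FPKM in WT and 63.3 in PKI, and 11.2 in MKI and 24.9 in HOMO, 1.33 lower in HOMO than in PKI. Ndufc1, another small complex I subunit, had 14.5, 22.9, 18.9 and 10.8 FPKM, 1.05 lower. The furthest above was Ndufa8, at 0.46, followed by the muscle isoforms Cox7a1 (0.44) and Cox6a2 (0.39), both near 1 FPKM, and Cox6b2 (0.24). Cox7a1 passed the filter through WT and HOMO alone, and not through PKI.

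Lower in both pairs that differ by the maternal insertion were 44 of the 79 nuclear subunits, or 55.7%, where 21.1% of all genes were. The 44 are 77.2% of the 57 lower in MKI than in WT and 68.8% of the 64 lower in HOMO than in PKI. Most subunits were lower in each pair alone, so a large overlap is expected from those counts. Agreement gene by gene was not tested. At 1.5-fold the overlap was 13 subunits, or 16.5% of the 79, where 1.6% of all genes qualified. These were 34.2% of the 38 in the first pair and 72.2% of the 18 in the second. At 2-fold the overlap was Atp5g1, Atp5mpl and Ndufb11, or 3.8% of the 79, where 0.459% of all genes qualified. As given above, the Atp5g1 and Atp5mpl calls depended on the scaling in 1 of these pairs each. Higher in both pairs were 2 nuclear subunits, Atp5h and Sdha, and 5 mitochondrial ones: mt-Nd1, mt-Co1, mt-Co2, mt-Nd4l and mt-Nd5, where 16.8% of all genes were. At 1.5-fold the mitochondrial overlap was mt-Nd1 and mt-Co2, where 0.414% of all genes qualified. The nuclear genes lowest in MKI against WT, Cox8a and Atp5g2, differed by −0.31 and −0.49 between HOMO and PKI. The paternal insertion can likewise be read in 2 pairs, PKI against WT and HOMO against MKI. Higher in both were 52 of the 79 nuclear subunits, or 65.8%, beside 20% of all genes. The 52 are 73.2% of the 71 in the first and 88.1% of the 59 in the second. Here too most subunits were higher in each pair alone, so a large overlap is expected from those counts. HOMO against MKI also shares the MKI column with MKI against WT, so a low value in that column enters both.

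**Figure D4:**
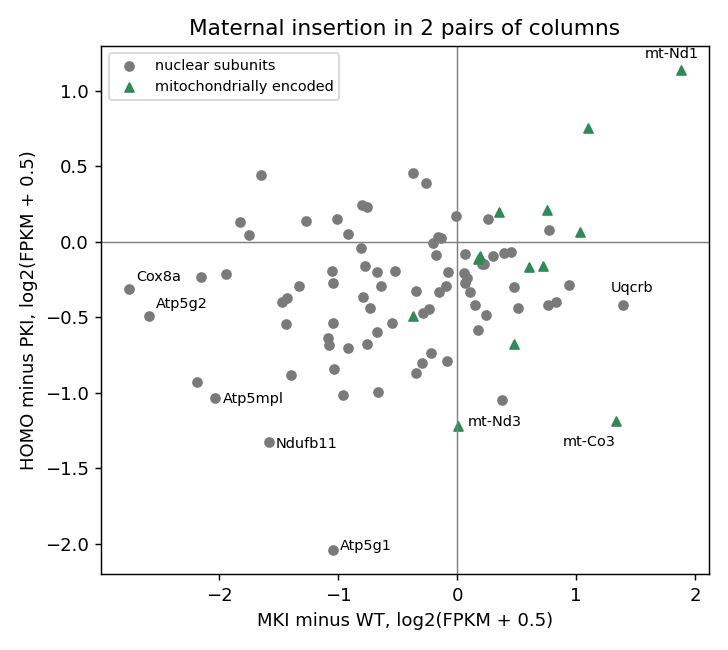
Log2(FPKM + 0.5) difference of each subunit in MKI against WT (horizontal) and in HOMO against PKI (vertical), with grey circles for nuclear and green triangles for mitochondrially encoded subunits. Most nuclear points lie in the lower left of the plot, 44 of 79, with Atp5g1 lowest at −2.04, and mt-Co3 and mt-Nd1 lie on opposite sides of the horizontal axis.

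Subunit c shows how genes for 1 protein can differ. Atp5g1, Atp5g2 and Atp5g3 encode precursors whose mature protein is the same and whose import sequences differ. Atp5g2 (chr15:102662868-102671047), with an exact NRF1 word in its promoter window as printed above, had 57.2 FPKM in WT and 82.7 in PKI, and 9.09 in MKI and 58.8 in HOMO. Atp5g3 had 75.2, 102, 28.2 and 55.2 FPKM. All 3 genes were highest in PKI and lowest in MKI, and their sum was 158, 238, 49.5 and 127 FPKM. Atp5g2 gave 36.2% of that sum in WT and 18.4% in MKI, a log2 difference of −2.59 in level. Atp5g1 gave 16.2%, 22.3%, 24.6% and 9.88% in the order WT, PKI, MKI and HOMO, the lowest share being in HOMO.

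**Figure D5:**
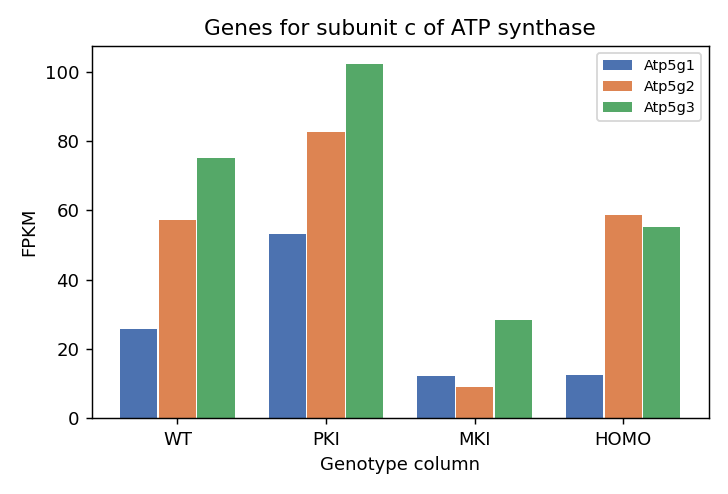
Level in FPKM of the 3 genes for subunit c of ATP synthase in each genotype column, with 1 bar per gene, an axis from 0 and no error bars because each column is single. The PKI bars are the tallest for every gene, the MKI bars the shortest, and the HOMO bar of Atp5g1 is near its MKI bar, at 12.5 beside 12.2 FPKM.

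The promoter words did not divide the subunits in one direction. Those with an exact NRF1 word had a median MKI difference of −0.91 (5 genes) and those without −0.46 (60). With up to 1 mismatch allowed the medians were −0.37 (23) and −0.67 (42), the reverse order. Subunits with CATGCGC had a median of −0.52 (13) and those without −0.67 (52). For CCGGAAG the medians were −0.93 (16) and −0.52 (49). Of the promoters shown, Ndufa11 differed from WT in MKI by −0.52 and Atp5k by −0.91, while Cox6a1 and Atp5g2 differed by −2.15 and −2.59.

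Tissue isoforms of the oxidase were scarce. Cox6a2 and Cox7a1, which replace Cox6a1 and Cox7a2 in heart and skeletal muscle, had at most 1.66 and 1.22 FPKM, and Cox7a1 was listed at 0 in MKI, which gives it no fold. Cox8b, also of muscle, had 0.465 FPKM in WT and 0.0684 in HOMO and was listed at 0 in PKI and MKI. Cox4i2, an isoform known from lung and low oxygen, had 0.735, 1.66, 0.690 and 0.903 FPKM, and Ndufa4l2, known from low oxygen, had 0.297, 0.900, 0.515 and 1.20. Of the testis isoforms, Cox8c was listed at 0 in every column, Cox7b2 was above 0 in MKI alone, at 0.224, and Cox6b2 had 5.49, 7.26, 2.94 and 8.69 FPKM. Testis markers (Tnp1, Prm1 and Ldhc) were at 0 in WT, PKI and MKI and summed to 0.117 FPKM in HOMO. The ubiquitous forms dominated: Cox6b2 was 5.31% of the Cox6b pair in WT and 8.90% in HOMO.

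The balance between the 2 genomes' contributions was furthest from WT in MKI. Summed mitochondrial over summed nuclear subunit FPKM was 1.58 in WT and 1.59 in PKI, and 3.65 in MKI and 1.58 in HOMO. Without mt-Co1 and mt-Co3 it was 0.676, 0.559, 1.20 and 0.643, so MKI stood highest either way. The nuclear sum itself was 4031, 5173, 3402 and 4074 FPKM, or 1.44%, 1.74%, 1.36% and 1.44% of each column's total. As a share of its column, MKI thus lay nearer WT than by the sum. MKI combined the lowest nuclear sum with the highest mitochondrial one, and PKI had the highest nuclear sum.

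Assembly factors build the complexes but stay out of them. The 9 assembly factors in the rule had medians of 0.30, 0.05 and −0.09 in PKI, MKI and HOMO against WT and −0.50 in HOMO against PKI. Ndufaf8, needed for early complex I assembly, had 4.84, 5.15, 0.489 and 2.65 FPKM, low in MKI by 2.43. Ndufaf3 was 1.04 lower and Ndufaf4, which works with it, 1.04 higher in MKI. Among 27 assembly genes of complexes II to V, 4 (14.8%) were past 2-fold lower in MKI and 1 higher, a share of low genes below the 19.1% of all genes. Their levels reached 37.5 FPKM in WT, for Uqcc2, a complex III factor. Cox14, which holds newly made Co1, had 18.1 FPKM in WT and 3.62 in MKI, and Sco2, a copper carrier for Co2, had 2.06 and 0.183. Cox20, another Co2 helper, had 10.6 and 26.9. In PKI, Pet100, which helps to assemble complex IV, was the 1 past 2-fold higher, at 7.23 FPKM over 2.95 in WT.

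The supply of mitochondrial transcripts and electron carriers was mixed. Of 28 tested genes that copy, process or maintain mitochondrial DNA and its RNA, 3 (10.7%) were past 2-fold lower in MKI, where 19.1% of all genes were, and none higher, where 1.22% were, with a median of 0.29. Polrmt, the mitochondrial RNA polymerase, had 6.52 FPKM in WT and 2.15 in MKI, and Fastk, of a family of mitochondrial RNA-binding proteins, had 17.2 and 2.87. Mterf2 (7.15 and 14.8) and the initiation factor Tfb2m (7.09 and 13.2) were the furthest above WT. In PKI the furthest above was Slirp, a partner of Lrpprc in stabilising mitochondrial messages, at 12.5 FPKM over 6.57. The 12 genes listed under electron carriers, Cycs and otherwise genes that make or handle coenzyme Q, had medians between −0.04 and 0.02 in all 4 comparisons. Cycs, cytochrome c itself, had 14.9, 16.5, 21.2 and 12.57 FPKM. Past 2-fold lower in MKI were Coq6 and Coq4, enzymes of coenzyme Q synthesis, or 16.7% of the 12, where 19.1% of all genes were. Coq10b was past 2-fold higher, or 8.33%, where 1.22% of all genes were.

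Among 8 tested nuclear regulators of these genes, the median MKI difference was 0.43 and 1 (12.5%) was past 2-fold lower, below the 19.1% of all genes. That was Esrra, a nuclear receptor that activates respiratory genes, with 3.64, 3.66, 0.321 and 2.35 FPKM. Gabpa had 14.0, 13.6, 24.9 and 11.9. The 17 genes listed under the citric acid cycle include Pdha1, Pdhb and Dlat of the pyruvate dehydrogenase complex. None of the 17 was past 2-fold in MKI, where 19.1% of all genes were 2-fold or more lower. Their median was −0.10, with Cs, citrate synthase, furthest below (72.9 in WT and 40.0 in MKI) and Sucla2 furthest above (14.3 and 28.3). Ribosomal protein genes, outside the respiratory chain, were mostly above WT in PKI as well. The 78 mitochondrial ribosomal protein genes had medians of 0.22 in PKI, with 70 higher where 40.5% of all genes were, and −0.22 in MKI, with 13 (16.7%) past 2-fold lower where 19.1% of all genes were, Mrpl36 (11.7 and 1.63) and Mrps12 (7.03 and 1.14) furthest. The 83 cytosolic ones had 0.49 in PKI, with 80 higher, and −0.42 in MKI, with 23 (27.7%) past 2-fold lower and 4 higher. No entry for ribosomal or transfer RNA of mitochondrial DNA was in the mRNA table used here.

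Tissue markers differed between columns beside these results. Summed definitive red cell markers came, in the order of WT, PKI, MKI and HOMO, to 3843, 1992, 1449 and 5099 FPKM, and embryonic globins to 2954, 4714, 2992 and 7051. Of the 8 definitive markers, 8 were below WT in PKI and 6 in MKI, with medians of −0.95 and −1.28, and 4 in HOMO, with a median of 0.11. Hepatocyte markers summed to 678, 241, 1193 and 844. In PKI all 8 were below WT, 7 of them past 2-fold. In MKI they went both ways, with a median of 0.20: Alb (204.7 FPKM in WT and 542 in MKI) and Afp carried the high sum, while Serpina1b and Ahsg were 2.17 and 1.47 lower. Cardiac markers summed to 221, 217, 181 and 225, with Actc1 the largest part. Of the 8, 7 were below WT in MKI, with a median of −0.49 and Myl7 (−1.51) and Tnni1 (−1.21) past 2-fold. Skeletal muscle markers summed to 121, 106, 95.7 and 122, and in MKI 4 of 7 tested were lower. Myog (20.5 FPKM in WT and 5.17 in MKI) and Myod1 (13.2 and 4.87) were past 2-fold. These were 28.6% of the skeletal list, and the cardiac share past 2-fold lower was 25%, where 19.1% of all genes were. No marker of either muscle list was at 0. Neuronal markers summed to 464, 290, 382 and 399. All 7 were below WT in PKI, and in MKI 4 were higher and 3 lower, with a median of 0.33 and Tubb3 (183 and 41.4) furthest below. Neural progenitor markers summed to 193, 184, 262 and 174, with 3 higher and 3 lower in MKI. The part of these markers in the subunit differences was not tested.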

How the data were processed

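Total RNA of whole embryos was selected with oligo(dT) beads and sequenced as dUTP-marked paired-end libraries, per the labels' protocols. The submitters' processing notes name the build GRCm38 and the tools StringTie 1.3.4d, HISAT2 2.0.4 and cutadapt 1.9, as well as DESeq2 and edgeR without version or role. The deposited mRNA values carry no unit in their header and are read here as FPKM computed by the authors, since StringTie is named and the values are not whole. The deposited microRNA values are RPM (reads scaled to library size) and served to check the labels. The long non-coding table was not used. The sources used here do not say whether a column is 1 embryo, 1 library or a mean.

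From these, Ensembl IDs were matched to symbols (22022 of 22036), entries sharing a symbol were summed, and genes at 1 FPKM or more in at least 2 columns (13279) were compared as differences of log2(FPKM + 0.5), which understates folds of low genes. A gene was counted as apart at 2-fold, or at 1.5-fold by a second rule. A limma model was foreseen for replicate columns; with 1 column per genotype none could be fitted. FPKM hold no read depth, so no counting interval can be given. Gene spans, promoter windows and their sequences are from RefSeq (GRCm38.p6); 67 nuclear subunits had a window.

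Members, gene lists and marker lists were chosen with earlier results of these data known. Named were every mitochondrially encoded subunit, core and isoform subunits by role, the 4 nuclear subunits furthest each way per comparison and 2 each way in other lists; other genes were named after their values were seen. A subunit covered by the naming rule is not reported here. Alternatives were other pseudocounts, filters, scalings, member sets and fold thresholds. Counting was tested on simulated data. Python 3.11.15, pandas 2.3.3 and numpy 2.4.6 were used.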

Additional observations from a re-analysis of the deposited data

Results flagged for a closer look

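The maternal insertion can be read in 2 pairs of columns, and the mitochondrially encoded subunits went different ways in them. Their median log2 difference was 0.61 in MKI against WT and −0.12 in HOMO against PKI, the latter above 0 (0.093) under quantile normalisation. For mt-Co3 the values were 1.34 and −1.18. Each pair is 1 column against 1, so the difference between the pairs was not tested.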

How the results depend on the processing

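No paired analysis was possible because each table has 1 column per genotype and carries no replicate numbers, and for the same reason no replicate could be left out. The median of mitochondrial subunits in HOMO against PKI (−0.12) changed sign under quantile normalisation, to 0.093. Their MKI median (0.61) was 0.81 under quantile normalisation, 0.73 under trimmed-mean (TMM) scaling, 0.81 when rescaled to nuclear genes and 0.41 without mt-Co1, mt-Co3 and mt-Cytb. Their PKI median was −0.18 under quantile normalisation. The nuclear MKI median (−0.52) was −0.37 with no filter, −0.40 under quantile normalisation, −0.40 under TMM, −0.32 when rescaled, −0.35 with assembly factors, −0.77 for spans under 10 kb, −0.14 for longer ones and −0.30 in HOMO against PKI. The median of all genes in MKI was −0.11, and 0.12, 0.00 and 0.08 under the 3 scalings. For long spans the nuclear PKI median was 0.23. The nuclear HOMO median was −0.05 for long spans, below 0, where that of all 79 nuclear subunits was 0.04.

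The number of subunits past 2-fold was 1 in PKI against WT and became 2 with a pseudocount of 0.1, 2 under quantile normalisation, 3 under TMM and 0 when rescaled. In HOMO against PKI it was 8, and 5 when rescaled. At 1.5-fold the numbers were 17 for PKI, 50 for MKI (29 at 2-fold), 6 for HOMO (3 at 2-fold) and 23 for HOMO against PKI. Of 1640 values of single subunits under these settings, 25 fell short of 2-fold where they had passed it, 14 passed it where they had not, and none past it changed sign. These values cover only part of the tested subunits, with at most 236 values per setting. The 25 therefore leave out some of the lost calls given above. The cause of these shifts was not tested. The unknown depth limits what can be read from genes near 1 FPKM, such as the tissue isoforms.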
